A study of Rattus norvegicus with 9 samples.

Results

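The 10 genes described here handle calcium and magnesium, or regulate that handling, in the thick limb and the distal nephron of the rat kidney. They were taken by symbol from a fixed list of channels, binding proteins, extrusion proteins, a calcium sensor, claudins and a growth factor. All 10 were found, each once, among the 19367 genes of the expression table, and all 10 were among the 13127 genes that reached 1 FPKM (a read level corrected for transcript length and for the reads mapped in a library) in at least 3 of the 9 libraries. Whole-kidney RNA was sequenced in 3 groups of 3 libraries. Dapagliflozin-treated SHR were spontaneously hypertensive rats that received the SGLT2 inhibitor orally, 10 mg per kg of body weight daily over 8 weeks, from the age of 3 months. Untreated SHR were animals of the same strain given distilled water over that time. WKY were normotensive Wistar-Kyoto rats given distilled water. Both water groups also started at the age of 3 months and ran over 8 weeks. A treatment field of the labels reads saline for both water groups, while all libraries carry Wistar-Kyoto as their strain there, so the titles set the groups. WKY and SHR are different strains rather than a single mutation apart, and there was no treated WKY group, so strain and drug act together when treated SHR are set against WKY. The labels do not tie a library to an animal, and p-values measure the spread between these libraries.

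Most filtered calcium and magnesium is recovered before the distal convoluted tubule, and the fine control lies beyond it. In the thick ascending limb both ions pass between the cells, through a pore built by the claudins of Cldn16 and Cldn19, under the brake of the calcium-sensing receptor Casr. In the distal convoluted and connecting tubules transport runs through the cells: calcium enters by the apical channel Trpv5, is ferried by the calbindins of Calb1 and S100g, and leaves by the sodium-calcium exchanger Slc8a1 and the calcium pump Atp2b1, while magnesium enters by the channel Trpm6, whose activity the hormone made from Egf raises.

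Libraries of the same group correlated at 0.969 to 0.989 and libraries of different groups at 0.922 to 0.987 (Pearson's r of log2 values over genes, a description only). Kidney identity was clear, with the thick limb gene Umod at 1332 to 4616 FPKM and the proximal transporter gene Slc34a1 at 835 to 1835 FPKM. Treated library 1 was the lowest of the treated libraries in Trpv5, Calb1, Slc8a1, Trpm6 and Egf. Read totals are not in the table, so no counting error can be attached to a value. In whole tissue, fewer cells of a type and less RNA per cell cannot be told apart.

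Levels per transcript length spanned a wide range. Calb1 (gene ID 83839) was the most abundant member at 576 ± 319 FPKM over the 9 libraries, followed by Egf (25313) at 349 ± 108 and Slc8a1 (29715) at 56.3 ± 36.2 (mean ± SD). Calb1 exceeded Egf in 7 of 9 libraries and the ranges of this pair overlapped, while Egf lay above Slc8a1 in all 9 with no overlap. Cldn19 (298487) at 38.0 ± 7.29 FPKM, Casr (24247) at 30.1 ± 4.65 and Cldn16 (155268) at 24.7 ± 6.17 came next. The lowest members were S100g (24249) at 12.3 ± 3.94 FPKM, Atp2b1 (29598) at 11.8 ± 1.34, Trpv5 (116469) at 9.52 ± 4.62 and Trpm6 (293874) at 8.09 ± 2.33. Below Egf every neighbouring pair in this order overlapped in range. The members also differed in how much they varied: the highest library held 5.71 times the lowest for Slc8a1, 4.50 times for Trpv5 and 4.37 times for Calb1, against 1.39 times for Atp2b1 and 1.58 times for Casr.

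**Figure D1:**
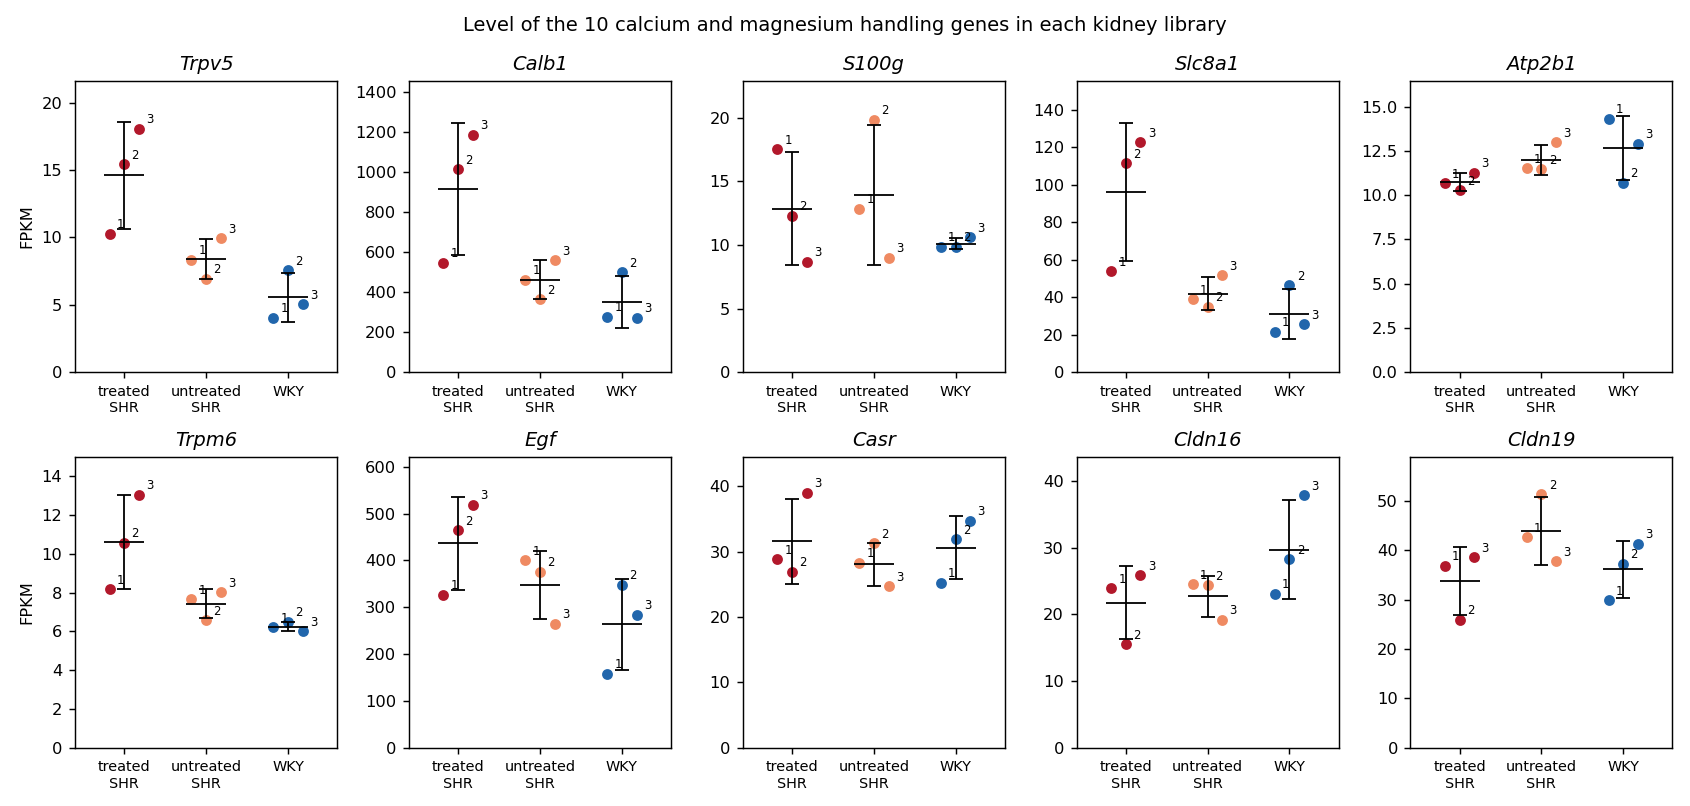
FPKM of each member (y axis, from 0) in the 3 dapagliflozin-treated SHR, 3 untreated SHR and 3 WKY libraries (x axis); points are libraries numbered by replicate, and bars give mean ± SD. Trpv5, Trpm6, Calb1 and Slc8a1 are highest in treated libraries 2 and 3, whereas Atp2b1 stays between 10.3 and 14.3 FPKM in all 9 libraries.

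Of the 5 genes of calcium transport through the cell, Trpv5, Calb1 and Slc8a1 varied most between libraries. Trpv5, the apical entry channel, was measured at 10.3, 15.4 and 18.1 FPKM in treated SHR libraries 1 to 3, at 8.33, 6.93 and 9.93 in untreated SHR and at 4.02, 7.58 and 5.05 in WKY. All treated libraries lay above all untreated ones, and WKY overlapped with untreated SHR through WKY library 2. Calb1, the large cytosolic calcium buffer of these cells, stood at 546, 1015 and 1186 FPKM in treated SHR, at 462, 365 and 558.5 in untreated SHR and at 276, 500.1 and 271 in WKY. Treated library 1 was here within the untreated range, and treated libraries 2 and 3 were above every other library. Slc8a1, the basolateral exchanger that carries out most calcium exit in these cells, was at 53.9, 112 and 123 FPKM in treated SHR, at 38.8, 34.9 and 51.6 in untreated SHR and at 21.5, 46.4 and 25.5 in WKY. Treated SHR did not overlap with either other group, although treated library 1 exceeded the highest untreated library only narrowly.

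The second calbindin and the pump did not share this pattern. S100g, the small calbindin, which in intestine is a classical vitamin D target, measured 17.6, 12.3 and 8.70 FPKM in treated SHR, 12.9, 19.9 and 8.99 in untreated SHR and 9.85, 9.86 and 10.6 in WKY. Its highest treated library was library 1, the one lowest in Calb1 among the treated, and the SHR libraries spread widely around the tight WKY values. Atp2b1, a plasma membrane calcium pump made by most cell types, measured 10.7, 10.3 and 11.3 FPKM in treated SHR, 11.5, 11.5 and 12.98 in untreated SHR and 14.3, 10.7 and 12.9 in WKY. The treated libraries lay just below the untreated SHR libraries, with no overlap, and within reach of WKY.

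Of the magnesium genes, Trpm6, the apical magnesium channel of the distal convoluted tubule, measured 8.18, 10.6 and 13.1 FPKM in treated SHR, 7.66, 6.58 and 8.02 in untreated SHR and 6.22, 6.51 and 6.02 in WKY. It was the one member whose 3 groups did not overlap in any pairing, although the gaps were narrow. The lowest treated library stood at 8.18 against 8.02 in the highest untreated SHR library. The lowest untreated SHR library stood at 6.58 against 6.51 in the highest WKY library. Egf, whose precursor is made in the thick limb and distal convoluted tubule, measured 326, 464 and 519 FPKM in treated SHR, 400.0, 376 and 264 in untreated SHR and 158, 348 and 284 in WKY. All 3 groups overlapped, and WKY library 1 was the lowest by far.

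Among the thick limb members the highest library held 1.58 times the lowest for Casr, 1.98 times for Cldn19 and 2.44 times for Cldn16. Casr, the basolateral receptor by which blood calcium reduces paracellular uptake, measured 28.9, 27.0 and 39.1 FPKM in treated SHR, 28.3, 31.3 and 24.7 in untreated SHR and 25.3, 31.9 and 34.7 in WKY. Cldn16 measured 23.9, 15.5 and 25.8 FPKM in treated SHR, 24.5, 24.4 and 19.2 in untreated SHR and 23.1, 28.2 and 37.9 in WKY. Cldn19, its partner in the paracellular pore, measured 36.9, 25.9 and 38.6 FPKM in treated SHR, 42.6, 51.4 and 37.8 in untreated SHR and 29.9, 37.3 and 41.3 in WKY. Groups overlapped for each of these 3 genes, and treated library 2 was the lowest of all 9 libraries for both claudins.

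Promoter windows, from 250 bases before to 50 bases after a transcript start in RefSeq's GRCr8 annotation, were at hand for 8 of the 10 members. Calb1 and S100g had none. They are shown for the called members among these, Trpv5, Trpm6 (with separate starts) and Slc8a1, because these rose in treated SHR against WKY in the tests that follow, and for the claudin pair, because its ratio separated the groups. Capitals mark matches, in either direction, to the letters of 4 promoter elements. The NF-Y box was searched as CCAAT. The GC box, bound by factors of the Sp1 type, was searched as GGGCGG. The element that nuclear receptors bind was searched as AGGTCA. The TATA box of the core promoter was searched as TATAAA. The E box, bound by helix-loop-helix factors, was searched as CANNTG, and its matches were counted but are not in capitals.
Trpv5, chr4:71529333-71529632, minus strand: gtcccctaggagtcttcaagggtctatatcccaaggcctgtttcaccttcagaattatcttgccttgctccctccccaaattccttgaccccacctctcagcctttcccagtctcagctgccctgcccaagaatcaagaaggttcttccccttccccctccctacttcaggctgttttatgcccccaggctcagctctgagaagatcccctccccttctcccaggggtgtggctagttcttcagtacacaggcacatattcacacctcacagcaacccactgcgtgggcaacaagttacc
Trpm6, chr1:225559278-225559577, plus strand: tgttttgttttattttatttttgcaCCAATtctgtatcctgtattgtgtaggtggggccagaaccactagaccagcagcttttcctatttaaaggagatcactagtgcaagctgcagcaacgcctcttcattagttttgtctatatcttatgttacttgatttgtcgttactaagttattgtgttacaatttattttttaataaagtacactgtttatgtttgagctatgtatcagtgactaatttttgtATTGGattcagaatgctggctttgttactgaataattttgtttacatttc
Trpm6, chr1:225596058-225596357, plus strand: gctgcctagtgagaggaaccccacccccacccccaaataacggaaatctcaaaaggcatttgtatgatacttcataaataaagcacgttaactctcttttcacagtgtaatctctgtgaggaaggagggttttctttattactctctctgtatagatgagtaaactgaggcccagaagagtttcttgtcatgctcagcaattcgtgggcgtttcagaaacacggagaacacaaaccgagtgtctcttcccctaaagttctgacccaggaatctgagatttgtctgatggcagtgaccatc
Slc8a1, chr6:19023309-19023608, plus strand: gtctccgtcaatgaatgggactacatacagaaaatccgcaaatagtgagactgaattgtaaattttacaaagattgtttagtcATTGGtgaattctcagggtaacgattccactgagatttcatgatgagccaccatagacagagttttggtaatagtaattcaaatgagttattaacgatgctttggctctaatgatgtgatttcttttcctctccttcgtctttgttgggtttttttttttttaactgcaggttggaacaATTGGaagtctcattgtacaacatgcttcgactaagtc
Cldn16, chr11:87814347-87814646, minus strand: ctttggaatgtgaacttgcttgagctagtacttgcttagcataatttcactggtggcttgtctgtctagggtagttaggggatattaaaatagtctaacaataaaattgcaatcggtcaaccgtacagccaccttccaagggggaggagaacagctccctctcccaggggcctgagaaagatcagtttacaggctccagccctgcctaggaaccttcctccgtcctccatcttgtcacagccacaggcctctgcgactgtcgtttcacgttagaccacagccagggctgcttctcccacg
Cldn19, chr5:138148325-138148624, plus strand: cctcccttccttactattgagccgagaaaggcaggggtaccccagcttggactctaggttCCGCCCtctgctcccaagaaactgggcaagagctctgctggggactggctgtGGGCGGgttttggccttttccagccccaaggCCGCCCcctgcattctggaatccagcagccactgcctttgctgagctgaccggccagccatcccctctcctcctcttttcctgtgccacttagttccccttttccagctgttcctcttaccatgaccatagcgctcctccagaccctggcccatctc

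The windows of Trpv5, Trpm6 and Slc8a1 held little in common at this level, and Calb1, which also rose, had no window to compare. The Trpv5 window and the second Trpm6 window had 0 matches to the motifs in capitals, while the first Trpm6 window and the Slc8a1 window each had 2 matches to the CCAAT box, which 37.5% of all 33469 windows hold. Cldn19 and Atp2b1 each had 3 GC box matches, present in 33.1% of all windows, and the other members' windows had none. No window of a member held the TATA box letters (14.2% of all windows), and Casr alone had the nuclear receptor element (16.2%). The E box, in 72.1% of all windows, had 2 matches in Slc8a1, 1 each in Trpv5, the second Trpm6 window, Cldn19, Egf and Casr, and 0 in the first Trpm6 window, Cldn16 and Atp2b1. Of the 19 matches, 1 E box in Slc8a1 overlapped a CCAAT box. The 19 count the E box of the second Trpm6 window again, in a further Trpm6 window that starts 1 base later and is not shown. The share of G and C was 54.3% for Trpv5, 32.7% and 44.7% for the Trpm6 windows, 36.3% for Slc8a1, 51.0% for Cldn16 and 59.7% for Cldn19, around a median of 51.7% over all windows, while the steady Atp2b1 had 74.3%. Absence of a match says only that the letters are not in these windows.

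The comparison of treated with untreated SHR asks what 8 weeks of dapagliflozin did to these genes within the hypertensive strain. Slc8a1, Calb1, Trpv5 and Trpm6 had mean levels 2.30, 1.98, 1.74 and 1.43 times those of untreated SHR, and none passed the test over all genes. The log2 change (of FPKM + 1 throughout) was 1.11 for Slc8a1 (95% interval 0.31 to 1.92, limma adjusted p = 0.284) and 0.93 for Calb1 (0.18 to 1.69, adjusted p = 0.290). It was 0.71 for Trpv5 (0.16 to 1.26, adjusted p = 0.285) and 0.44 for Trpm6 (0.11 to 0.78, adjusted p = 0.285). Cldn19 was 0.769 times its untreated level (log2 change -0.38, interval -0.79 to 0.03, adjusted p = 0.352), and Egf 1.26 times (0.33, interval -0.36 to 1.01, adjusted p = 0.613). Casr, Cldn16, S100g and Atp2b1 had log2 changes between -0.14 and 0.15, with adjusted p from 0.525 to 0.897, and the intervals of S100g (-0.73 to 0.55) and Cldn16 (-0.58 to 0.42) leave room for sizeable differences either way.

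In this comparison limma called 0 of the 13127 genes (0% of them) at an adjusted p of 0.05. At an unadjusted p of 0.05 there were 1997 genes (15.2%), and 4 of the 10 members were among those higher, against 9.82% of all genes. Trpv5, Trpm6 and Slc8a1 were higher without overlap, where 12.6% of all genes were, and Atp2b1 was lower without overlap, where 6.44% were. Leaving out treated library 1 brought Slc8a1 (log2 change 1.48, adjusted p = 0.0355), Calb1 (1.27, adjusted p = 0.0426) and Trpm6 (0.60, adjusted p = 0.0345) past the threshold in limma, together with 830 genes in all. No other single library left out made a member pass.

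Untreated SHR against WKY asks how the hypertensive strain differs without drug. Trpv5 stood at 1.51 times its WKY level (log2 change 0.54, 95% interval -0.01 to 1.10, limma adjusted p = 0.261), the smallest p among the members. Slc8a1 (1.34 times), Calb1 (1.32 times), Egf (1.32 times) and S100g (1.38 times) had higher means too, with log2 changes of 0.36 to 0.47 and adjusted p from 0.433 to 0.501. Cldn16 and Cldn19 lay on opposite sides, at 0.764 and 1.21 times WKY (log2 changes -0.36 and 0.28, adjusted p = 0.397 and 0.422). Trpm6 was 1.19 times WKY without overlap (log2 change 0.21, adjusted p = 0.445), and Casr (-0.12, adjusted p = 0.712) and Atp2b1 (-0.07, adjusted p = 0.755) were the members nearest to no difference.

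None of the 10 members was called between the strains, where limma called 2.96% of all genes, and none reached an unadjusted p of 0.05, which 19.5% of all genes did. Trpm6 was the single member higher without overlap, by 6.58 against 6.51 FPKM in the nearest libraries, against 20.3% of all genes. Lower without overlap were 0 members, against 8.11%. The members' median log2 change was 0.32 and that of all genes tested 0.07.

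Against WKY, treated SHR carried more transcript of 4 genes of calcium and magnesium transport through the cell. Slc8a1 rose to 96.0 ± 36.9 FPKM in treated SHR, against 31.1 ± 13.4 in WKY, and Calb1 to 916 ± 331 against 349 ± 131. Trpv5 rose to 14.6 ± 3.96 FPKM, against 5.55 ± 1.83 in WKY, and Trpm6 to 10.6 ± 2.44 against 6.25 ± 0.246 (n = 3 per group). The log2 changes were 1.59 for Slc8a1 (95% interval 0.78 to 2.39, limma adjusted p = 0.0190), 1.37 for Calb1 (0.62 to 2.13, adjusted p = 0.0235), 1.25 for Trpv5 (0.70 to 1.81, adjusted p = 0.0130) and 0.66 for Trpm6 (0.32 to 0.99, adjusted p = 0.0190). All 4 were higher in 3 of 3 treated libraries than in every WKY library.

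The other 6 members did not pass. Egf came closest at 1.66 times WKY (log2 change 0.78, interval 0.09 to 1.46, adjusted p = 0.0903), and Cldn16 at 0.732 times WKY (log2 change -0.44, interval -0.94 to 0.06) and Atp2b1 at 0.849 times (-0.21, interval -0.45 to 0.03) had adjusted p of 0.172 and 0.176. S100g, Casr and Cldn19 had log2 changes of 0.27, 0.04 and -0.10 (adjusted p = 0.502, 0.879 and 0.696). The Casr value changed sign under both other scalings tried.

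Thus 4 of 10 members were called, all higher and 0 lower, where limma called 22.9% of all genes, 16.8% higher and 6.09% lower. Without overlap 4 members were higher and 0 lower, against 28.2% and 10.4% of all genes. The members' median log2 change was 0.46 beside 0.11 for all genes. Median-of-ratios scaling took the median of all genes to -0.01 and the share of higher calls among all called genes to 54.2%, against 73.5% as deposited, and kept all 4 members called with log2 changes of 0.53 to 1.45. Without WKY library 3 no member passed, at adjusted p = 0.0555 for Trpv5 and 0.0706 to 0.0885 for the other 3. Without WKY library 1, treated library 2 or treated library 3, or with untreated SHR kept out of the fit, only Trpv5 passed of the 10. Over all genes 593 were called without WKY library 3, and 806, 1076, 945 and 1026 in these other fits, in the order given. Egf passed as well without WKY library 2 (log2 change 1.01, adjusted p = 0.0447) or treated library 1 (0.97, adjusted p = 0.0432), and Atp2b1 passed as lower without WKY library 2 (-0.32, adjusted p = 0.0447). Treated SHR are the upper group both here and against untreated SHR, so these comparisons share libraries.

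**Figure D2:**
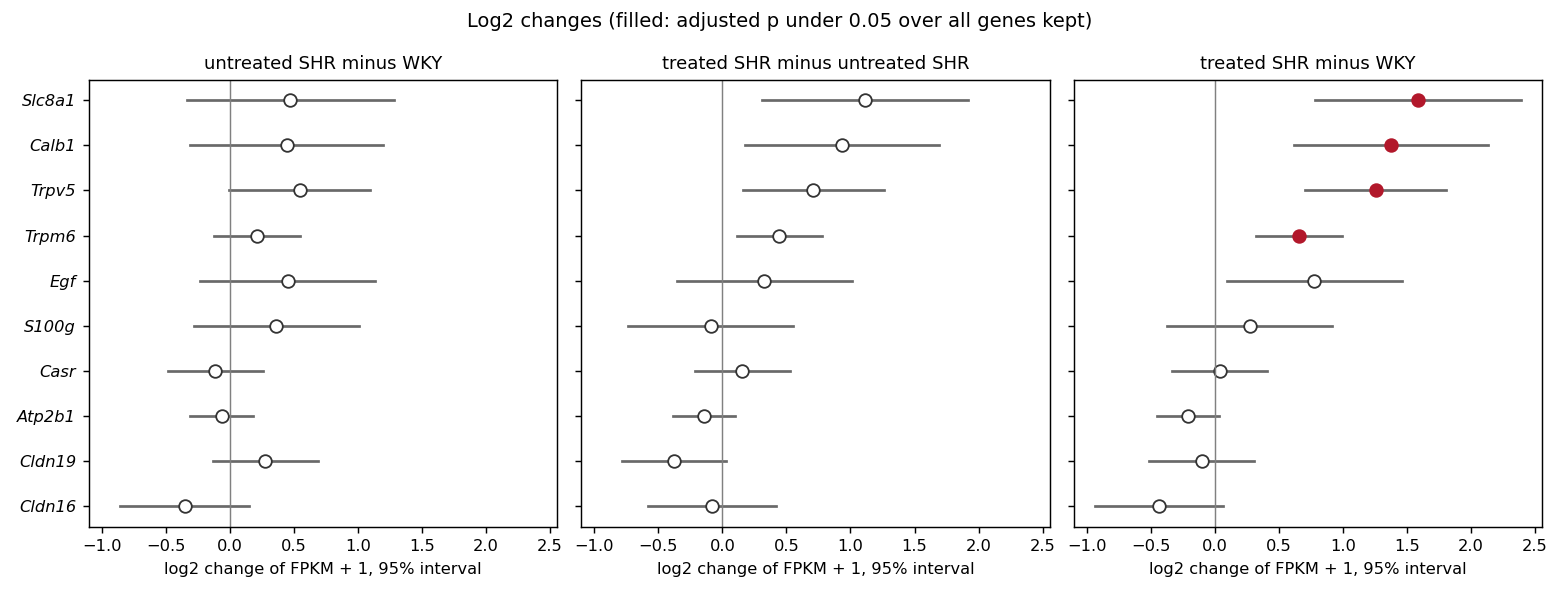
Log2 change of FPKM + 1 (x axis) of each member (rows) with its 95% interval (lines) in the 3 comparisons; filled points passed an adjusted p of 0.05 over all genes kept. Slc8a1, Calb1, Trpv5 and Trpm6 pass in treated SHR against WKY, at 0.66 to 1.59, and no point is filled in the other panels.

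Markers of the segments moved with these genes. Summed over a list of distal convoluted tubule markers without any member (7 genes, led by the sodium-chloride cotransporter gene Slc12a3), levels were 857 to 1395 FPKM in treated SHR, 732 to 837 in untreated SHR and 555 to 915 in WKY. In treated SHR against WKY 5 of the 6 of them that were expressed well enough to test rose, with a median log2 change of 0.94, and Pvalb, a marker in mouse, was at 0 in 8 of 9 libraries. The 8 connecting tubule and collecting duct markers summed to 2044 to 3785 FPKM in treated SHR, 1368 to 1708 in untreated SHR and 673 to 1264 in WKY, and 8 of 8 rose between treated SHR and WKY (median log2 change 1.63). Intercalated cell markers (6 genes) summed to 897 to 1508, 644 to 987 and 459 to 604 FPKM in treated SHR, untreated SHR and WKY, and 6 of 6 rose in the same comparison. Of all genes, limma called 16.8% higher and 6.09% lower between treated SHR and WKY. None of the genes on these 3 lists passed between treated and untreated SHR, where 0% of all genes did. Between untreated SHR and WKY 2 connecting tubule and collecting duct markers passed as higher, where limma called 2.96% of all genes in either direction.

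Most proximal tubule markers ran the other way. The 8 early proximal markers summed to 1348 to 2768 FPKM in treated SHR, 2752 to 3594 in untreated SHR and 2470.1 to 3461 in WKY, and 2 of 8 fell and 0 rose against WKY. The 6 late proximal markers summed to 133 to 922, 562 to 767 and 723 to 1727 FPKM in the same order of groups, and 2 of 6 fell. Treated library 1 held the 922, of which Slc7a13 made 839. Against WKY 5 late markers had lower log2 means, and Cyp7b1 was higher without being called (3.02 ± 0.754 against 1.69 ± 0.476 FPKM). Thick limb markers (8 genes) overlapped across the groups, at 3299 to 4735 FPKM in treated SHR, 3798 to 6458 in untreated SHR and 3332 to 4789 in WKY, and against WKY 3 rose and 1 fell. Podocyte markers (7 genes) summed to 323 to 565, 308 to 492 and 125 to 311 FPKM, and 2 of 7 rose against WKY. Of 5 inner medullary markers tested 2 rose, and 0 passed among endothelial, smooth muscle, leukocyte and adipocyte or adrenal markers. All these counts stand beside 16.8% of all genes called higher and 6.09% called lower by limma between treated SHR and WKY. The lists are short, and their counts were not tested against these shares.

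No member call between treated SHR and WKY held beside a segment marker covariate. With the mean of the thick limb and distal convoluted lists as a covariate, 0 members were called between treated SHR and WKY, with log2 changes of 0.43 to 0.81 for the 4 genes. With the connecting and collecting duct list as the covariate, chosen after seeing the data, their log2 changes lay between -0.81 and -0.12. The mean log2 level of the connecting and collecting duct list did not overlap between treated SHR and WKY. This fit therefore cannot tell covariate and group apart. Early and late proximal lists, likewise added after seeing the data, also gave 0 called members. Over all 13127 genes 3010 calls became 122, 21, 134 and 131 with these covariates, in the order given. The loss of calls was therefore not particular to the members. The log2 changes of the 4 genes were 0.66 to 1.94 with the early list (adjusted p = 0.0951 to 0.137) and 0.32 to 0.53 with the late list (adjusted p = 0.322 to 0.608). In the early proximal fit, under that limit, the 4 calls were lost with changes about as large as without the covariate or larger. The changes were smaller or reversed with the other 3 lists. The part of segment mix in these results was not tested beyond these fits.

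**Figure D3:**
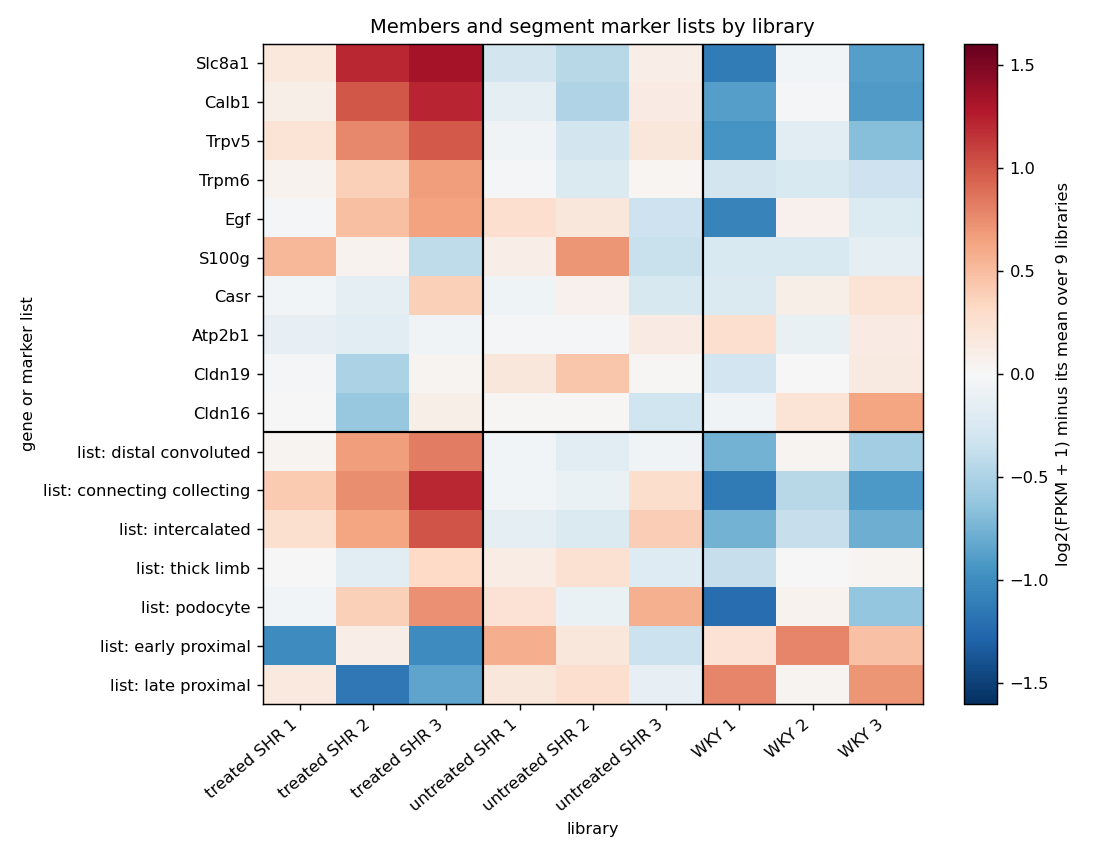
Log2(FPKM + 1) minus its own mean over 9 libraries (colour) for the 10 members (upper rows) and the mean of 7 segment marker lists (lower rows) in each library (columns). Slc8a1, Calb1 and Trpv5 are darkest red in treated libraries 2 and 3 and blue in WKY libraries 1 and 3, as are the distal convoluted, connecting and intercalated lists, whereas the late proximal list is blue in treated libraries 2 and 3.

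Ratios within a library do not depend on how that library was scaled. Calb1, Slc8a1 and Trpv5 kept close proportions: Calb1 was 9.10 to 12.9 times Slc8a1 in all 9 libraries although each gene varied more than 4-fold, and the Trpv5 to Calb1 ratio lay between 0.0146 and 0.0190. Of all 45 pairs of members, the log2 ratio varied least for Calb1 with Slc8a1 (SD 0.14) and for Trpv5 with Calb1 (SD 0.18). The Calb1 to Slc8a1 ratio was 10.1, 9.10 and 9.67 in treated SHR, 11.9, 10.5 and 10.8 in untreated SHR and 12.9, 10.8 and 10.6 in WKY. Treated libraries thus held the 3 lowest values, with less Calb1 per Slc8a1. The Trpv5 to Trpm6 ratio was highest in the treated libraries, at 1.26, 1.46 and 1.38 in treated SHR, 1.09, 1.05 and 1.24 in untreated SHR and 0.646, 1.16 and 0.839 in WKY.

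The claudin ratio separated the groups, without passing a test over the member pairs. Cldn16 stood to Cldn19 at 0.649, 0.599 and 0.669 in treated SHR, at 0.574, 0.475 and 0.508 in untreated SHR and at 0.772, 0.758 and 0.916 in WKY. No group overlapped with another: untreated SHR was lowest, treated SHR intermediate and WKY highest. The log2 ratio differed by -0.63 between untreated SHR and WKY, by 0.30 between treated and untreated SHR and by -0.33 between treated SHR and WKY. Each has a two-sided exact permutation p of 0.1, the smallest that 3 against 3 libraries allow, and over the 45 pairs the Benjamini-Hochberg adjusted p was 0.75, 0.321 and 0.188 in these permutation tests. Among the 45 member pairs the ratio did not overlap in 6 (13.3%), 14 (31.1%) and 24 (53.3%) pairs in these comparisons, against 28.3%, 20.1% and 38.4% of all pairs of the 13127 genes, and the pairs given here were picked after their values were seen. Tmem207, the thick limb gene next to Cldn16 in the GRCr8 assembly, measured 7.24, 4.32 and 8.41 FPKM in treated SHR, 8.92, 11.2 and 5.33 in untreated SHR and 11.98, 11.9 and 20.0 in WKY, and both SHR groups lay below WKY. It was picked out after its values were seen.

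**Figure D4:**
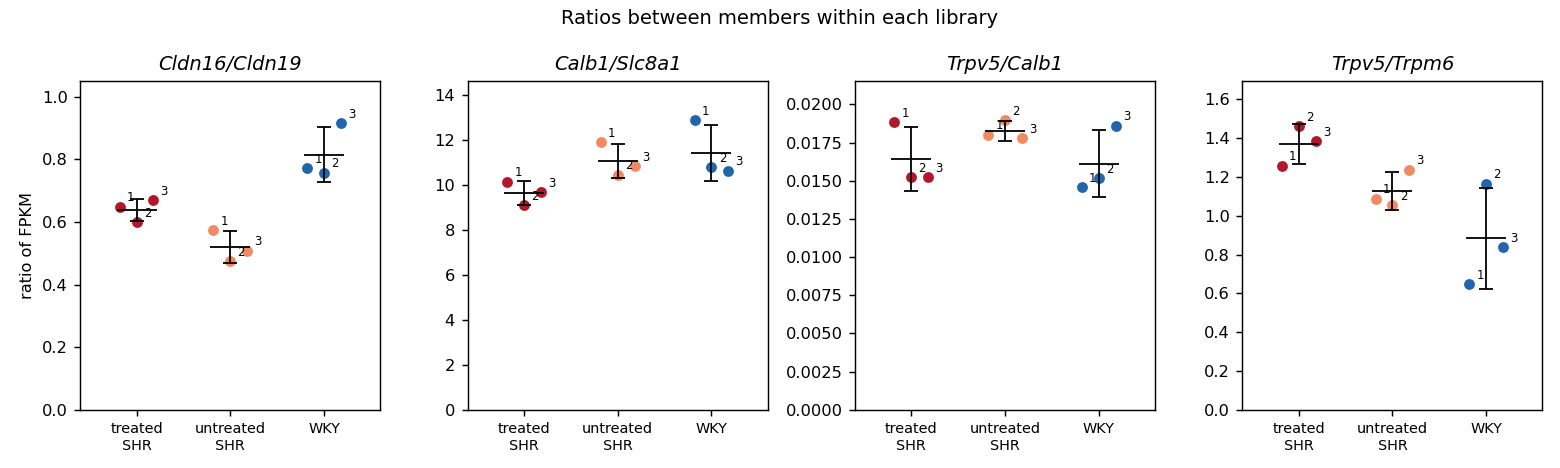
Ratio of FPKM between 2 members within a library (y axis, from 0) in treated SHR, untreated SHR and WKY (x axis); points are libraries and bars mean ± SD. Cldn16 to Cldn19 separates all 3 groups, with treated SHR at 0.599 to 0.669, untreated SHR at 0.475 to 0.574 and WKY at 0.758 to 0.916, whereas Calb1 to Slc8a1 stays between 9.10 and 12.9.

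Genes that act around these members were followed in 2 lists, one for calcium (19 genes, 16 expressed well enough to test) and one for magnesium (16 genes, 15 tested). In treated SHR against WKY 8 calcium genes rose and 3 fell, and 3 magnesium genes rose and 0 fell, against 16.8% of all genes higher and 6.09% lower. The magnesium count, 3 of 15, is near the share over all genes. Vdr, the vitamin D receptor, which drives several distal calcium genes, rose to 106 ± 30.5 FPKM in treated SHR, against 41.0 ± 8.03 in WKY (log2 change 1.32, limma adjusted p = 0.00679). Kl, klotho, the phosphate hormone co-receptor of distal tubule cells, rose to 123 ± 33.5 against 51.1 ± 15.0 FPKM (adjusted p = 0.0147). Of the calcium pumps beside Atp2b1, Atp2b4 rose to 32.8 ± 11.4 against 11.6 ± 1.33 FPKM (adjusted p = 0.00744) and Atp2b2 to 4.22 ± 1.26 against 1.56 ± 0.569 (adjusted p = 0.0136).

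The falls among the calcium genes were claudins. Cldn10, which forms sodium pores in the thick limb and anion pores elsewhere, fell to 70.3 ± 25.8 FPKM in treated SHR, against 164 ± 15.6 in WKY (log2 change -1.26, limma adjusted p = 0.0116). Cldn3, a sealing claudin, fell to 10.7 ± 4.03 against 24.0 ± 4.16 FPKM (adjusted p = 0.0165), and the other was Cldn2, the cation pore of the proximal tubule (log2 change -1.19, adjusted p = 0.0341), named to complete the count. The magnesium genes that rose all belong to the CNNM family of proteins tied to magnesium export and balance: Cnnm4 at 13.9 ± 3.69 against 5.93 ± 0.826 FPKM (adjusted p = 0.00810), Cnnm2, a basolateral protein of the distal convoluted tubule, at 42.5 ± 11.2 against 20.9 ± 4.11 (adjusted p = 0.0152) and Cnnm3 at 32.8 ± 6.33 against 22.6 ± 2.90 (adjusted p = 0.0350). With the thick limb and distal convoluted covariate 1 of the 11 calcium calls and 0 of the 3 magnesium calls remained. With the other marker covariates 0 of either remained. Over all 13127 genes 3010 calls became 122 with the thick limb and distal convoluted covariate. They became 21 with the connecting and collecting duct, 134 with the early proximal and 131 with the late proximal covariate. Log2 changes under the covariates were followed for the 6 calcium genes with the smallest p and the 3 CNNM genes, not for the other calcium calls. The early proximal list did not overlap between treated SHR and WKY in mean log2 level, so its fit cannot tell covariate and group apart. With it the log2 changes were nonetheless larger, as for Vdr (1.48, limma adjusted p = 0.0752), Kl (1.54, adjusted p = 0.0895), Cldn3 (-1.56, adjusted p = 0.0720) and Cnnm4 (1.15, adjusted p = 0.0895). With the late proximal list they were smaller, at 0.73 for Vdr and 0.48 for Kl. Without WKY library 3 the calcium and magnesium counts were 2 and 1 (593 of all genes). Without WKY library 1 they were 4 and 1 (806 of all genes). The calcium count was 6 with only these groups in the fit (1026 of all genes). It was also 6 without treated library 2 (1076 of all genes) and without treated library 3 (945 of all genes). The magnesium count was 1 without treated library 2 and 5 without treated library 1 (4791 of all genes).

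Neither list held a called gene in the other comparisons with all libraries and no covariate in the fit of all 3 groups. Between treated and untreated SHR the smallest p in each list belonged to Vdr (106 ± 30.5 against 50.2 ± 1.30 FPKM) with Atp2b4 (32.8 ± 11.4 against 16.0 ± 1.32), and to Magt1, a magnesium transporter-associated gene (17.6 ± 0.368 against 12.4 ± 0.413), with Cnnm2 (42.5 ± 11.2 against 25.5 ± 2.68). None of the 4 passed (limma adjusted p = 0.281 each). Leaving out treated library 1 brought 6 calcium and 3 magnesium genes past the threshold, together with 830 of all 13127 genes. Between untreated SHR and WKY the smallest p belonged to Cyp24a1, the enzyme that degrades active vitamin D (28.1 ± 3.10 against 10.6 ± 8.12 FPKM, limma adjusted p = 0.103), with Cldn3 (12.8 ± 2.22 against 24.0 ± 4.16, adjusted p = 0.105), and to Cnnm4 (8.67 ± 0.843 against 5.93 ± 0.826, adjusted p = 0.193) with Magt1 (12.4 ± 0.413 against 14.4 ± 1.96, adjusted p = 0.311). Cyp24a1 passed without WKY library 1 (log2 change 2.08, adjusted p = 0.0118) and with the thick limb and distal convoluted covariate (2.01, adjusted p = 0.0254). Cldn3 passed when treated library 1 was left out (-0.86, adjusted p = 0.0313), with only the groups compared (adjusted p = 0.0350) and with the late proximal covariate (-0.58, adjusted p = 0.0154). Rragd, a gene named here after its values were seen, was called lower with the thick limb and distal convoluted covariate alone. Trpv6, the gene next to Trpv5 and its closest relative, was too low to test at a mean of 0.89 FPKM in treated SHR, with 0.49 to 0.72 in untreated SHR and 0.11 to 0.26 in WKY. Reads that the 2 related genes share could be placed in either.

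The genes whose profiles over the 9 libraries came nearest to each member were found by the root mean square difference of log2 values, each centred on its own mean. For Slc8a1 they were Klhl3 (0.12), a regulator of the sodium-chloride cotransporter, Calb1 (0.13) and Hsd11b2 (0.14), which protects the mineralocorticoid receptor from glucocorticoids, where the median gene differed by 0.75. For Calb1 they were Degs2 (0.12), Klk1b3 (0.13), one of a family of similar kallikrein genes and so uncertain, and Slc8a1. For Trpv5 they were Sall3 (0.05), Slc25a43 (0.07) and Bsnd (0.08), the chloride channel subunit barttin, against 0.55 for the median gene. For Trpm6 they were Asah2 (0.05), Cbarp (0.05) and Gla (0.05), and for Egf Tmem72 (0.11) and Mfsd4a (0.12). The steadier members had nearest genes of other kinds, such as Cabp1 (0.05) for Casr, Anp32e (0.06) for Atp2b1 and Rgs6 (0.11) for Cldn19. For these the median gene differed by only 0.26, 0.24 and 0.33, so small differences are easier to reach. Cldn16 and S100g lay farthest from their nearest genes, with 0.16 for Card19 and 0.22 for Bhlhe40, against 0.39 and 0.43 for the median gene. S100g was the farthest of all members.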

How the data were processed

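Kidney RNA was measured in 9 libraries, 3 per group. Per the labels' protocols, RNA came from Trizol extraction, and a BGISEQ-500 sequencer gave reads of 50 bases from 1 end. Per the submitters' processing notes, HISAT2 2.0.4, Bowtie2 2.2.5 and the build Rnor_6.0 were used, with roles not given there. The table holds FPKM computed by the authors, per the file headers, with 2 decimals. Not given in the sources used here: the counting program, the annotation and whether strand was used. FPKM scaling lets a few abundant transcripts shift all others. The step between low values was 0.954 to 1.05 times the gene median over 16 to 25 weak genes per library. Only genes whose non-zero values lay within 1.5 times of each other entered, so a larger difference in depth could not show. Relative and absolute depth are thus unknown.

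Genes with FPKM of at least 1 in at least 3 libraries were analysed as log2(FPKM + 1), which understates changes of weak genes. The 3 contrasts were tested two-sided with limma 3.58.1 in R 4.3.3 (group means of all 9 libraries, variance trend, Benjamini-Hochberg adjustment over 13127 genes, call at 0.05), after testing the script on simulated data. Ratios were tested by exact permutation (scipy 1.17.1). Members were matched to RefSeq GRCr8 by gene ID (10 of 10); that build was used for names, neighbours and promoter windows only. Members and lists were chosen with earlier results of these data known. Named list genes are those called, up to 6 per list and contrast by smallest p, or the 2 with the smallest p where none was called; nearest genes are taken from the 3 best per member with a proper symbol, and not all of them are reported here. Alternatives changed the pseudocount, filter, scaling, groups in the fit, variance trend, replicate block, marker covariate (the thick limb and distal list planned, 3 others added after seeing the data) and libraries. Each of 5 motifs searched is reported. Equal replicate numbers share no stated animal or batch and were not treated as pairs.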

Additional observations from a re-analysis of the deposited data

How the results depend on the processing

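Between treated SHR and WKY 4 members were called by limma; with only those groups in the fit 1 was, and with each of the 4 marker covariates (thick limb and distal, connecting and collecting duct, early proximal, late proximal) 0 were, the count ranging from 0 to 6 as single libraries were left out. Between treated and untreated SHR the count of 0 ranged from 0 to 3, with 3 without treated library 1; between untreated SHR and WKY it was 0 under every alternative run. A pseudocount of 0.1, no filter, both scalings, no variance trend and the replicate block gave the same member counts. Same-numbered libraries deviated at correlations between -0.33 and 0.46; with the replicate block 2700 genes were called between treated SHR and WKY and 1 between treated and untreated SHR, where the main count was 0 (1997 at an unadjusted p of 0.05).

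The connecting and collecting duct, early proximal and late proximal covariates were added after seeing the data. Under the first, log2 changes turned round between untreated SHR and WKY for Trpv5 (-0.34), Trpm6 (-0.20), Calb1 (-0.73), Slc8a1 (-0.81), Atp2b1 (0.026), Egf (-0.22) and Cnnm4 (-0.11). Between treated and untreated SHR they did so for Trpv5 (-0.052), Calb1 (-0.081), S100g (0.58), Casr (-0.082) and Egf (-0.25). Between treated SHR and WKY they did so for Trpv5 (-0.39), Trpm6 (-0.12), Calb1 (-0.81), Slc8a1 (-0.81), Casr (-0.47), Egf (-0.46), Atp2b2 (-0.23), Kl (-0.40), Cldn3 (0.013), Cnnm4 (-0.017), Cnnm2 (-0.36) and Cnnm3 (-0.36). Under the early proximal covariate S100g (0.045, treated against untreated SHR) and Casr (-0.00068, treated SHR against WKY) turned. Under the late proximal covariate S100g (0.28), Cldn16 (0.12) and Egf (-0.027) turned between treated and untreated SHR and Cldn19 (0.13) between treated SHR and WKY. Under the thick limb and distal convoluted covariate Atp2b1 turned between the strains (0.013), S100g (0.012), Casr (-0.055) and Egf (-0.12) between treated and untreated SHR, and Casr (-0.36) and Egf (-0.081) between treated SHR and WKY. Casr also turned between treated SHR and WKY with median-of-ratios scaling (-0.095) and quantile normalization (-0.046). The cause was not tested.

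Leaving out single libraries, the sign turned for Atp2b1 between the strains (-0.17 to 0.023), for S100g (-0.35 to 0.19), Cldn16 (-0.21 to 0.13) and Casr (-0.0034 to 0.26) between treated and untreated SHR, and for Casr (-0.12 to 0.14) and Cldn19 (-0.23 to 0.072) between treated SHR and WKY. The log2 ratio of Cldn16 to Cldn19 between the strains ranged from -0.70 to -0.55; its sign could not turn, since the pair was picked with groups that do not overlap. Counts over all genes moved by more than 1.5 times: between treated SHR and WKY 3010 genes became 1026 with only those groups, 122 with the thick limb and distal, 21 with the connecting and collecting duct, 134 with the early proximal and 131 with the late proximal covariate, and 593 to 4791 without single libraries. Between the strains 388 became 105 with the connecting and collecting duct covariate and 167 to 626 without single libraries; between treated and untreated SHR 0 ranged from 0 to 830, with 830 without treated library 1. The share of higher calls between the strains was 62.1%, and 51.6% with median-of-ratios and 49.6% with quantile scaling.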
